A study of Bos taurus and Bos indicus with 3 samples.

Results

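The 7 genes KRT17, SNAI1, CRYGS, LGALS13, CABP2, THEG and ZFYVE28 are known chiefly from epithelium, lens, placenta, inner ear, testis and the endosome, and all were found in the table of leukocyte transcripts. They were chosen from the deposited expression values themselves: 0 or close to 0 in the Holstein and Jersey columns and above 70 FPKM in the Cholistani column. FPKM counts sequenced fragments per kilobase of transcript and scales them to the size of the library. Each gene matched 1 model, which gives 7 of the 25968 gene models in the table. Because the choice used these values, the levels below are a description and carry no test.

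mRNA from white blood cells was sequenced as 1 library per breed, from blood pooled over 40 Holstein, 7 Jersey or 45 Cholistani cows. Holstein and Jersey are taurine breeds, sampled at a university in Wisconsin, and Cholistani is an indicine breed sampled on a farm in Pakistan. No treatment, time point or age is given for any group. Only the Cholistani RNA travelled in a dry storage matrix, so breed, site and storage cannot be told apart. With 1 library per breed there is no replicate, and no error or p-value could be attached to any value. The fragments behind each value are unknown, so no counting interval is given. Below, 3 values in a row stand for Holstein, Jersey and Cholistani in this order.

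Keratins are the intermediate filaments of epithelial cells, and KRT17 is a type I keratin of basal layers, hair follicles and healing skin. SNAI1 is a zinc finger repressor that switches off epithelial adhesion genes during epithelial-mesenchymal transition. CRYGS is a gamma crystallin of the eye lens, LGALS13 a galectin best known from the primate placenta, and CABP2 a calcium sensor of retina and inner ear. THEG is transcribed in haploid male germ cells, and ZFYVE28 carries a FYVE domain, which binds a phosphoinositide of endosomes, and restrains signalling of the EGF receptor.

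KRT17 (chromosome 19 from 43193395 to 43204933, btau4.0) stood at 0 FPKM in both taurine libraries and at 411 FPKM in Cholistani. This was the highest of the 7 levels, 3.04 times that of the next gene. THEG (chromosome 7, 42115902 to 42828000) was listed at 0, 0 and 135 FPKM. ZFYVE28 (chromosome 6, 119359246 to 119412174) was listed at 0 in both taurine libraries and at 105 FPKM in the Cholistani library. CABP2 (chromosome 29, 47128197 to 47405031) had 0, 0 and 76.1 FPKM. LGALS13 (chromosome 18, 48781771 to 48784022) had 0, 0 and 72.5 FPKM, the lowest of the 7. Thus 5 of the 7 genes were above 0 in the Cholistani library alone, and no ratio can be formed for them.

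SNAI1 and CRYGS differed from the other 5 genes in having a value in Jersey. SNAI1 (chromosome 13, 79047196 to 79052504) was at 0, 9.48 and 119.8 FPKM, and the last is 12.6 times the Jersey value. CRYGS (chromosome 1, 82562320 to 82568528) was at 0, 10.1 and 89.9 FPKM, and the Cholistani value was 8.88 times that of Jersey. On the log2 scale of FPKM + 1, the difference between Cholistani and Jersey was 3.53 for SNAI1 and 3.03 for CRYGS. The differences became 2.74 and 2.31 with a pseudocount of 10 FPKM, 2.95 and 2.46 after the libraries were rescaled to equal sums, and 3.34 and 2.85 after division by the median ratio to Holstein. None of the 7 was above 0 in Holstein, where the choice of the genes already required 0 or close to 0. In a bulk library, more cells that carry a transcript and more transcript per cell cannot be told apart.

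**Figure D1:**
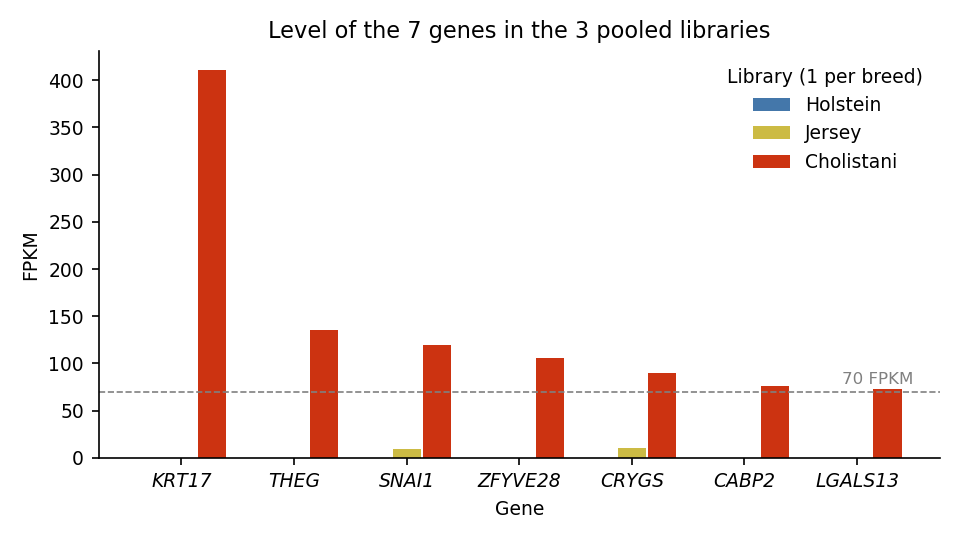
FPKM (y axis, starting at 0) of the 7 genes in the Holstein, Jersey and Cholistani libraries, 1 bar per library and no error bars because each breed has 1 library. KRT17 reaches 411 FPKM, the other Cholistani bars lie between 72.5 and 135 FPKM, and the only taurine bars are those of SNAI1 and CRYGS in Jersey.

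Within the Cholistani library the levels other than that of KRT17 lay near the middle. The choice required more than 70 FPKM there, which barred low ranks beforehand, so the places below are a description only. Of the 13666 models above 0 there, 81.3% lay below KRT17, which was 3.44 times the median of models with a gene name (119 FPKM). THEG lay above 58.4% of the detected models, SNAI1 above 55.4% and ZFYVE28 above 52.5%. CRYGS, CABP2 and LGALS13 lay above 48.9%, 45.0% and 43.8%. In all, 3 of the 7 exceeded the median of named models and 4 lay below it. The 7 levels spanned 5.67-fold, from LGALS13 to KRT17, and summed to 1009 FPKM.

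KRT17, THEG, ZFYVE28, CABP2 and LGALS13 were among the models above 0 in Cholistani alone, to which SNAI1 and CRYGS do not belong. There were 981 models at 0 in Holstein and Jersey and above 0 in Cholistani (6.42% of the 15284 models above 0 in any library), with a median of 15.8 FPKM. Of these, 153 had a gene name, with a median of 9.06 FPKM, and 9 of the 153 were above 70 FPKM. Among all 981, KRT17 ranked 20, THEG 39, ZFYVE28 48, CABP2 71 and LGALS13 75. Among the 153 with a name the ranks were 1, 2, 5, 8 and 9. The remaining places in the first 9 belonged to S100A5, HBEGF, IL1A and S100A2. Since these ranks use the values by which the genes were chosen, they only place the genes on the scale of the library.

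**Figure D2:**
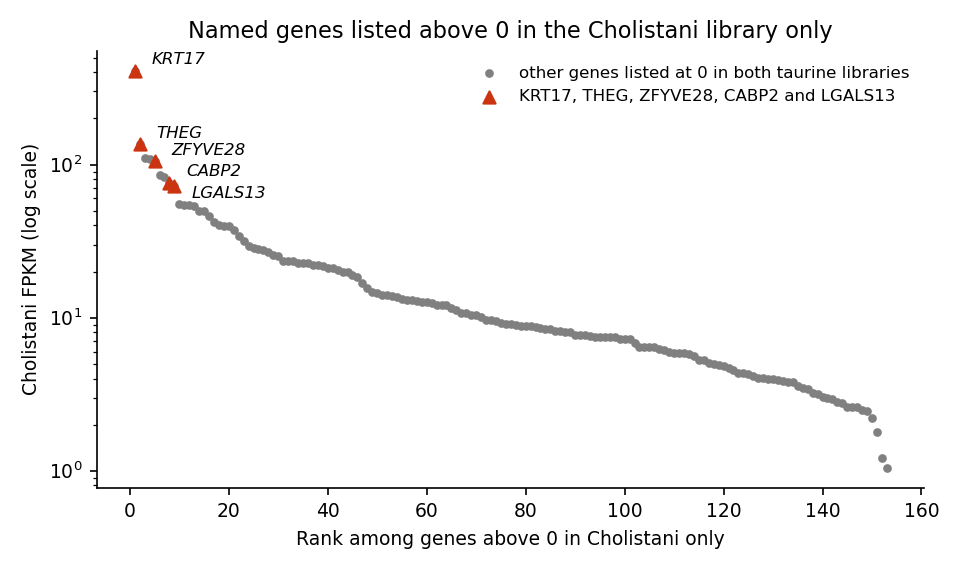
Cholistani FPKM (log axis) against rank for the 153 named genes above 0 in the Cholistani library and listed at 0 in Holstein and Jersey. Triangles mark KRT17, THEG, ZFYVE28, CABP2 and LGALS13, which hold ranks 1, 2, 5, 8 and 9, and the median of all 153 is 9.06 FPKM.

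The same pattern was counted in each library in turn, as more than 70 FPKM in 1 library and at most 11 FPKM in both others. The limit of 11 was set to admit the Jersey values of SNAI1 and CRYGS. It held for 88 models in Cholistani (0.576% of 15284), 74 in Jersey (0.484%) and 33 in Holstein (0.216%). After the libraries were rescaled to equal sums, it held for 62 in Cholistani, 81 in Jersey and 40 in Holstein. Among the 7853 models with a gene name above 0 in any library, it held for 12 in Cholistani (0.153%), for 0 in Jersey (0%) and for 0 in Holstein (0%). With exact zeros in both other libraries, the named count in Cholistani was 9. The 12 named models are 0.257% of the 4663 named models above 70 FPKM in Cholistani. Besides the 7 genes they comprised S100A2, S100A5, HBEGF, IL1A and PRSS23, a serine protease gene at 7.04, 5.09 and 88.7 FPKM. HBEGF, which encodes a ligand of the EGF receptor, was listed at 0, 0 and 109.5 FPKM, and a link to ZFYVE28 was not tested.

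**Figure D3:**
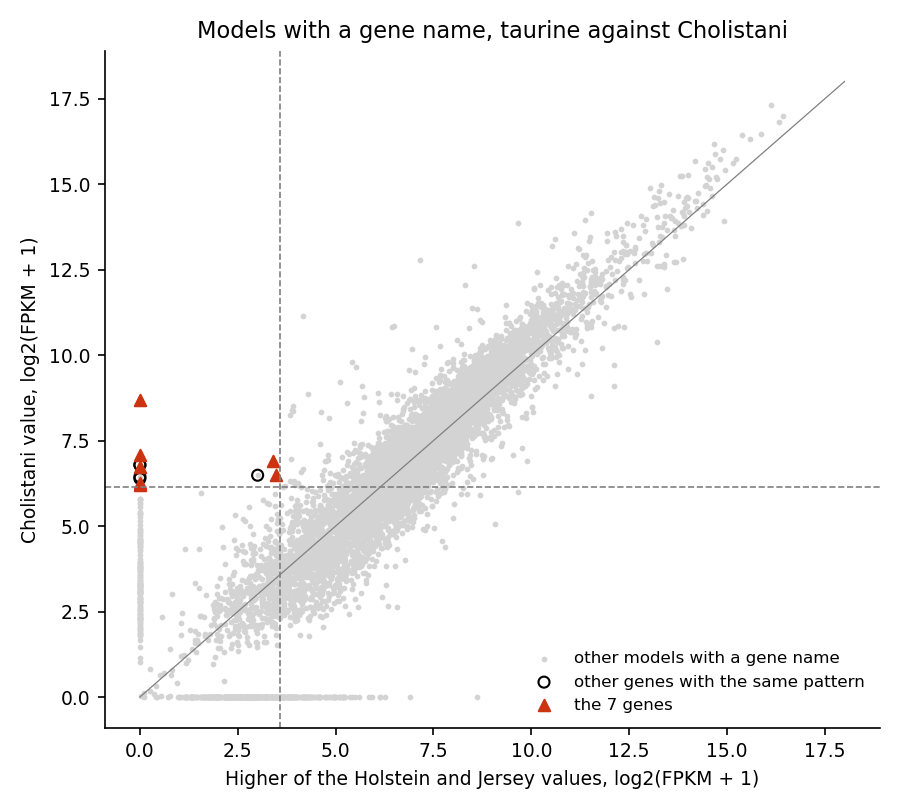
Each point is a model with a gene name, with the higher of its Holstein and Jersey values on the x axis and its Cholistani value on the y axis, both as log2(FPKM + 1). Dashed lines mark 11 FPKM (vertical) and 70 FPKM (horizontal), the solid line equal values, triangles the 7 genes and open circles the other 5 named genes in the same corner.

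The named genes with the profile closest to the median of the 7 were found by the distance of log2(FPKM + 1) over the 3 libraries. HBEGF (distance 0.06), S100A5 (0.06), IL1A (0.29), S100A2 (0.34) and NDUFAF2 (0.93) came first. NDUFAF2, an assembly factor of respiratory complex I, was at 0, 0 and 54.9 FPKM. At the limit of 70 FPKM, the named genes just inside were LGALS13, CABP2 and S100A2 (82.8 FPKM). Just outside were GPAT2 at 61.4 FPKM, with 1.57 in Holstein and 1.97 in Jersey, the alkaline phosphatase gene ALPL at 59.95 FPKM, with 9.998 in Holstein, and NDUFAF2.

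A listed 0 sets no exact limit on a level. The lowest 5% of named models above 0 had values up to 6.08, 5.45 and 6.43 FPKM, so values as low as these were listed. Named models at 0 in 1 library and above 50 FPKM in both others numbered 2 for Holstein, 0 for Jersey and 2 for Cholistani. An FPKM of 0 for a gene that is abundant in both other libraries was therefore rare among named genes, but it occurred. With unnamed models included, 12 in Holstein, 4 in Jersey and 35 in Cholistani were at 0 while above 100 FPKM in both others.

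The positions of the 7 models fell on 7 chromosomes. KRT17, SNAI1, CRYGS, LGALS13 and ZFYVE28 each had a span of their own, from 2252 bases for LGALS13 to 52929 bases for ZFYVE28. CABP2 and THEG did not. The span listed for CABP2 covers 276835 bases and is shared with 16 other models, and that for THEG covers 712099 bases and is shared with 35. Such a span is that of a group of neighbouring genes, not of the gene, and the table lists no strand. How fragments were divided among the models of a shared span was not tested. In the table as a whole, 21.5% of models shared their span with another.

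In the span of CABP2, 14 of the other 16 models were above 0 in some library. Set against Holstein, 7 of these reached a 2-fold higher value in Cholistani, 0 a 2-fold lower one and 7 neither. These counts use values as deposited and were not repeated after rescaling to equal sums. Over all 15284 models, 3006 (19.7%) passed 2-fold upwards and 2099 (13.7%) downwards, so 58.9% of the models that differed were higher, against 29.7% after rescaling to equal sums. The RefSeq order of genes on ARS-UCD2.0 puts CABP2 between CDK2AP2 and GSTP1, both in the same listed span. CDK2AP2, a regulator of the cell cycle, had 803, 767 and 1528 FPKM. GSTP1, which conjugates glutathione, had 880, 1197 and 4200 FPKM (a log2 difference of 2.25 between Cholistani and Holstein). The kinase gene RPS6KB2 had 425, 641 and 2229 FPKM, and CABP4, a calcium sensor related to CABP2, was at 0 in all 3 libraries. CABP2 was the only model of its span above 0 in Cholistani alone.

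The span of THEG held 28 detected models beside THEG, of which 9 were higher in Cholistani by 2-fold or more, 0 lower and 19 neither. Over all models, 19.7% were higher and 13.7% lower. For this span too, the counts were made on deposited values only. The largest difference was that of PRSSL1, a serine protease gene, at 12.1, 13.7 and 332 FPKM. GZMM, the granzyme M of cytotoxic lymphocytes, had 94.5, 46.9 and 461 FPKM. RefSeq places MIER2, a chromatin regulator, next to THEG, and MIER2 had 48.8, 63.4 and 112 FPKM. One other model of the span was above 0 in Cholistani alone, at 5.74 FPKM and with a protein accession in place of a name. The sperm tail gene ODF3L2 and the neuropeptide receptor gene KISS1R, in the same span, were at 0 in all 3 libraries.

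**Figure D4:**
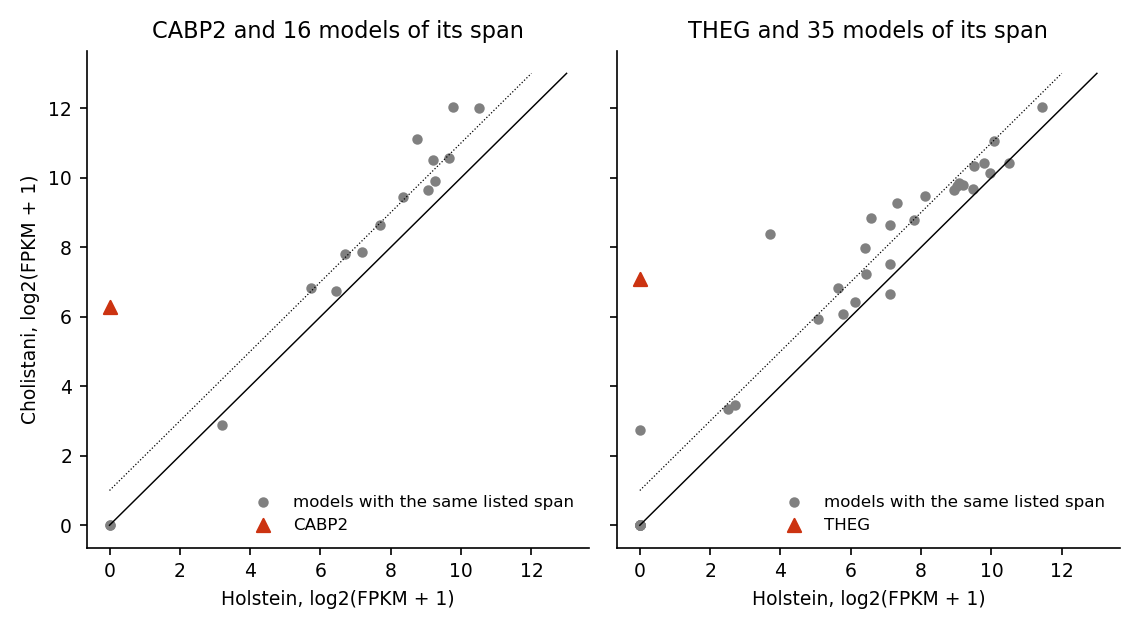
Cholistani against Holstein values, both as log2(FPKM + 1), for CABP2 (left) and THEG (right) as triangles and for the 16 and 35 models that share their listed spans as grey points. The solid line marks equal values and the dotted line a 2-fold difference of FPKM + 1. Both triangles lie at 0 on the x axis, while most grey points lie along or above the solid line.

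The neighbours of the other 5 genes ranged from abundant transcripts of all 3 libraries to genes listed near 0. KRT17 lies 6737 bases past a span that holds KRT14 and KRT19, which were at 0, 0 and 8.47 FPKM and at 0, 0 and 8.77 FPKM. On its other side the nearest named gene was EIF1, a translation initiation factor, at 2759, 2976 and 6836 FPKM. RefSeq lists the keratin genes KRT16 and KRT42 beside KRT17, but neither matched a name in the table. Keratins share long stretches of sequence and the alignment kept fragments that fit several places, so the division of fragments between KRT17 and its relatives is uncertain.

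SNAI1 lies between RNF114, a ubiquitin ligase gene at 770.0, 678 and 1121 FPKM, and UBE2V1 at 714, 761 and 888 FPKM. Between and around them, 3 models without a name were above 0 in Cholistani alone. They lay 8835 and 2378 bases before SNAI1 and 46616 bases after it, at 32.7, 10.4 and 12.6 FPKM. Within 100 kb of the 7 genes and outside their spans, 37 models were detected, and 5 of them (13.5%, against 6.42% of all models) were above 0 in Cholistani alone, namely these 3, KRT14 and KRT19. CRYGS starts 1279 bases past the end of TBCCD1, a gene at 46.8, 55.0 and 37.2 FPKM. The nearest named model to LGALS13 was EID2, at 10.5, 12.3 and 9.19 FPKM and 70563 bases away. POLN, a DNA polymerase gene near ZFYVE28, was at 2.58, 2.64 and 0 FPKM.

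Relatives of the 7 genes were examined in 12 lists of 281 other genes, of which 164 were found by name. Of these, 92 were at 0 in all 3 libraries and 72 were measured. Set against Holstein, 17 were higher in Cholistani by 2-fold or more (23.6%, against 19.7% of all models) and 15 lower (20.8%, against 13.7%), so 40 were neither. Against Jersey, 18 of the 72 were higher and 9 lower, where 17.2% of all models were higher and 14.2% lower. After rescaling to equal sums, 12 of the 72 were higher than in Holstein and 28 lower. On that scale 1773 of all 15284 models were higher and 4199 lower. Above 0 in Cholistani alone were 8 of the 72 (11.1%, against 6.42% of all models), and the highest of these was SAG at 49.8 FPKM. The shares of all models in this paragraph include models without a name. All 72 genes have a name, and among named models 153 of 7853 were above 0 in Cholistani alone. The lists were drawn up with earlier results of these data known, and no test was run. Counts of single lists against Holstein, given below, stand beside the same shares of all models.

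Among keratins other than KRT17, 19 of 30 were found by name, and 14 of these were at 0 in all 3 libraries. Of the other 5, KRT10, KRT14 and KRT19 were higher in Cholistani by this measure, KRT72 was lower and KRT24 was neither. KRT10, a keratin of the outer skin layers, had 3.73, 4.28 and 23.3 FPKM. KRT72, a keratin of the hair root sheath, had 39.7, 20.4 and 4.43 FPKM. The sum of the 5 was 55.4, 34.05 and 52.6 FPKM, so KRT17 alone exceeded the sum of these 5 in the Cholistani library. Keratins not found by name are missing from this sum.

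Genes of epithelial junctions and the basement membrane had a median log2 difference of -0.84 between Cholistani and Holstein, where all models had 0.15. Of 13 measured, 2 were at least 2-fold higher, 6 lower and 5 neither, where 19.7% of all models were higher and 13.7% lower. CTNND1, a catenin that binds cadherins, had 66.4, 53.7 and 16.996 FPKM, and the junction protein gene F11R 186, 158 and 90.2 FPKM. CTNNB1 and CTNNA1, the most abundant of the list, had 468, 455 and 432 FPKM and 322, 284 and 203 FPKM. The higher members were the tight junction gene CLDN3 (0, 11.5 and 32.6 FPKM) and ITGB4 (0, 0 and 2.20 FPKM). CDH1, which encodes E-cadherin and is a classical target of SNAI1, had 5.70, 1.76 and 0 FPKM. Its taurine values lie in the lowest 5% of named models above 0, and a link to SNAI1 was not tested.

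The markers that define epithelium were listed at 0 or low. KRT5, KRT8 and TP63 were at 0 in all 3 libraries, KRT14 had 0, 0 and 8.47 FPKM, EPCAM 6.64, 10.8 and 8.81 FPKM, and KRT18 matched no name. Of the epithelial regulators, SFN was at 0, 0 and 12.4 FPKM and GRHL3 at 4.01, 0 and 0 FPKM, and 8 others were at 0 throughout. Of the defining markers found, none exceeded 11 FPKM in any library, so the 7 genes are described by the rule that chose them and not as an epithelial group. The part of epithelial cells in their levels was not tested. Leukocyte markers summed to 56098, 49604 and 77084 FPKM over the 15 of 24 that were found. All of the 15 but CXCR2 were abundant in all libraries. CXCR2 had 33.5, 7.62 and 598 FPKM. CD3E of T cells had 2041, 2127 and 6016 FPKM, and CD79A of B cells 5281, 6190 and 14273 FPKM. Of the 15 markers, 8 were higher in Cholistani and 0 lower, with a median log2 difference of 1.09. All models had 19.7% higher and 13.7% lower, with a median of 0.15. After rescaling to equal sums 3 of the 15 markers were higher (CD8A, NKG7 and CXCR2), 2 lower (S100A8 and S100A12) and 10 neither, with a median of 0.42. Whether blood cell makeup had a part in the levels of the 7 genes was not tested. A list for fibroblasts, endothelium and muscle summed to 395, 306 and 430 FPKM over 10 measured genes, with 1 higher, 2 lower and 7 neither (1, 4 and 5 after rescaling). In it the matrix genes were low in all libraries. COL3A1 had 6.82, 1.54 and 0 FPKM, and DCN 6.06, 0 and 0 FPKM. COL1A1 had 8.38, 6.19 and 7.37 FPKM, COL1A2 6.89, 4.90 and 2.98 FPKM, and COL6A1 0, 0 and 2.62 FPKM.

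The list for epithelial-mesenchymal transition gave 4 measured genes beside SNAI1. VIM, the filament protein of mesenchymal cells and leukocytes, had 12811, 11328 and 12961 FPKM. TCF3 had 251, 303 and 260 FPKM, and CDH2 was at 0, 0 and 5.07 FPKM. CDH2 was the only one of the 4 at least 2-fold higher. SNAI2 and SNAI3, the paralogs of SNAI1, and FOXC2 were found by name and at 0 in all 3 libraries.

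Crystallins other than CRYGS numbered 6 measured genes, of which 3 were higher in Cholistani, 0 lower and 3 neither. The higher ones were CRYM, a thyroid hormone binding protein (8.88, 6.70 and 48.6 FPKM), CRYBB1 (195, 251 and 518 FPKM) and CRYZL1 (103, 163 and 240.3 FPKM). After rescaling to equal sums 1 was higher (CRYM) and 1 lower (CRYZ, a log2 difference of -1.46 against Holstein). The CRYZL1 difference against Jersey turned from 0.56 to -0.04 on the log2 scale. The other 11 crystallins found by name were at 0 in all 3 libraries. Of 14 other lens and eye genes found, 11 were at 0 throughout and 3 were at least 2-fold higher in Cholistani. BFSP2, which encodes the lens filament protein phakinin, had 78.2, 81.2 and 277 FPKM. SAG, the arrestin of rod cells, was at 0, 0 and 49.8 FPKM, and PDE6G, a subunit of the rod phosphodiesterase, at 0, 0 and 13.02 FPKM.

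Galectins beside LGALS13 were measured for LGALS1, LGALS9 and LGALS12. LGALS9, a galectin of immune cells, had 1757, 1472 and 4435 FPKM, a log2 difference of 1.34 against Holstein that became 0.66 after rescaling. LGALS1 had 1690.2, 1620 and 2278 FPKM. In the placenta list 5 of 6 genes found were at 0 in all libraries, and the sixth was PLAC8, which leukocytes also express, at 8406, 9673 and 13813 FPKM. LGALS12, known from fat tissue, had 61.8, 85.5 and 77.1 FPKM.

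Relatives of CABP2 comprised 10 measured genes of calmodulin and neuronal calcium sensor type. HPCA (15.3, 20.7 and 33.6 FPKM) and NCS1 (0, 0 and 12.7 FPKM) were higher in Cholistani, 0 were lower and 8 were neither. HPCA missed 2-fold after rescaling (0.44 on the log2 scale), after division by the median ratio (0.90) and against Jersey (0.67). Against Jersey, 4 genes of the list were higher (CALML4, KCNIP3, NCALD and NCS1), 1 was lower (HPCAL4) and 5 were neither. Calmodulin, listed under 1 protein name for its several genes, had 936, 803 and 1512 FPKM, and CIB1 548, 590.3 and 887 FPKM. The median log2 difference of the list was 0.78, and 0.10 after rescaling. Of 16 testis genes found beside THEG, 14 were at 0 in all 3 libraries. SYCP3 of the meiotic chromosome axis had 5.62, 2.03 and 2.37 FPKM, and the sperm kinase gene TSSK3 had 1.47, 0 and 0 FPKM.

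FYVE domain genes other than ZFYVE28 were the relatives with the most measured members, and most of those that differed were lower in Cholistani. Of 17, 1 was higher in Cholistani, 6 were lower and 10 neither, where 19.7% of all models were higher and 13.7% lower. Against Jersey 3 were lower, namely FYCO1, ZFYVE26 and ZFYVE9. After rescaling 11 of the 17 were lower than in Holstein, as were 4199 of all 15284 models. The median log2 difference was -0.75 against 0.15 for all models, and -1.42 against -0.43 after rescaling. ZFYVE9, which anchors SMAD proteins at endosomes, had 37.7, 34.05 and 9.98 FPKM, and ZFYVE26 had 49.4, 42.9 and 13.3 FPKM. FYCO1, an adaptor for autophagosome transport, had 37.6, 36.0 and 9.61 FPKM. PIKFYVE, the kinase that forms a further phosphoinositide of endosomes, had 127, 102.5 and 55.1 FPKM. The higher gene was HGS, a subunit that sorts ubiquitinated receptors, at 280.0, 320.4 and 650.5 FPKM, and it missed 2-fold after rescaling (0.54 on the log2 scale). The most abundant, WDFY4, had 1103, 1479 and 1246 FPKM. Of 6 measured genes of EGF receptor traffic, 0 were higher, 0 lower and 6 neither, but after rescaling 3 of the 6 were lower (CBL, EPS15 and LRIG1). Their median log2 difference, over all 6, went from -0.32 to -0.98, while that of all models went from 0.15 to -0.43. Among the 6, the sorting subunits VPS28 and VPS25 had 941, 1067 and 1380 FPKM and 657, 641 and 1187 FPKM. The receptor gene EGFR was not among the 6 measured genes.

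**Figure D5:**
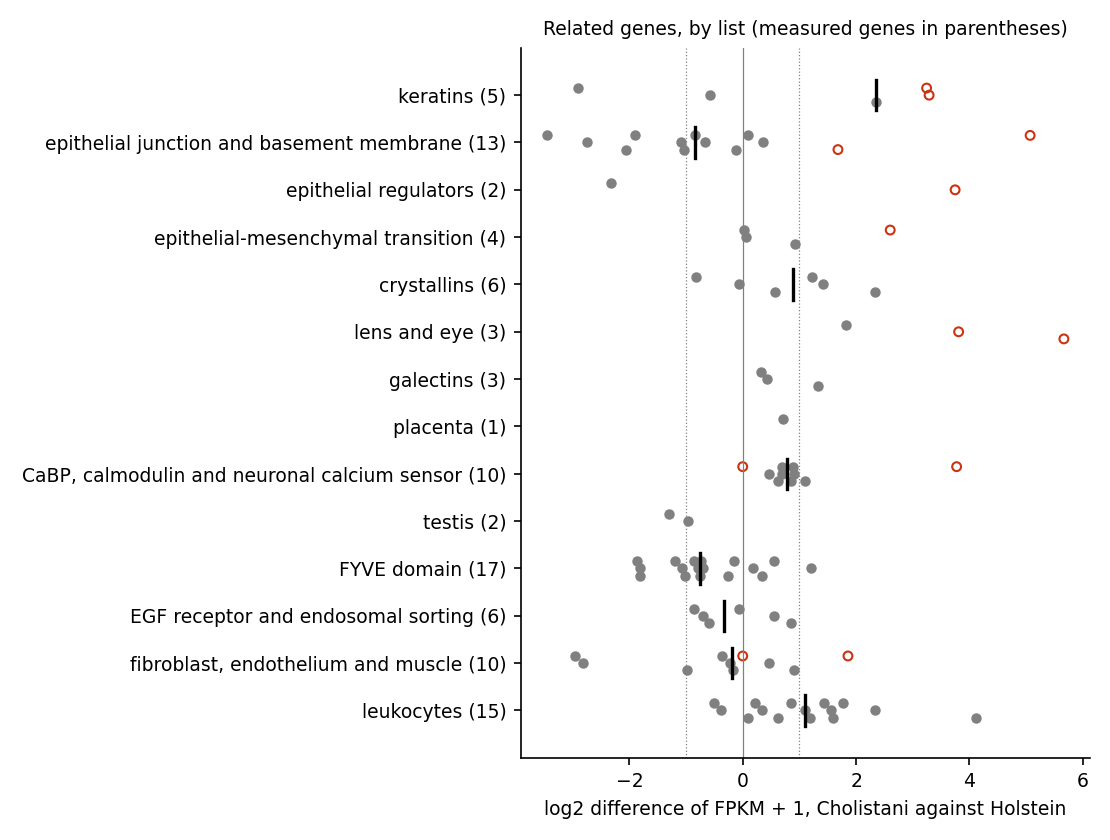
Cholistani minus Holstein value of log2(FPKM + 1) for the measured genes of 14 lists, without the 7 genes themselves, 1 point per gene. Open circles mark genes at 0 in Holstein, whose position depends on the pseudocount, black bars the median of lists with at least 5 genes and dotted lines a 2-fold difference. Junction and FYVE domain genes have medians of -0.84 and -0.75, and leukocyte markers 1.09.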

How the data were processed

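The deposited gene values are FPKM, which the authors estimated with Cufflinks v0.9.3 from reads aligned to btau4.0 by TopHat v1.0.14 and Bowtie v0.12.7, with splice junctions of Ensembl release 60. The authors upper-quartile normalized them and corrected them for sequence bias. Values were used as deposited (Python 3.11.15, pandas 2.3.3). Listed starts were taken to count from 0, and 1 was added. Both taurine values of 5 models were missing, and these models were left out.

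Models were matched by symbol or bovine protein entry name. Entries that give only an accession were not matched, and of several models the most abundant was taken. With 1 library per breed no test was run. Higher and lower mean at least 2-fold in FPKM + 1. The members, the lists and the limits of 70 and 11 FPKM were chosen with earlier results of these data known. Named genes were the 7 genes, neighbours, the 5 closest profiles, genes at the 70 FPKM limit and, per list, up to 4 genes at least 2-fold different with 50 FPKM or more and the 2 most abundant. Others, among them SAG, PDE6G, CRYM, CLDN3, ITGB4, CDH2, SYCP3 and TSSK3, were named after their values were seen. Of the many models in the spans of CABP2 and THEG, a few were picked after their values were seen. Counting was tested on simulated data. RefSeq gene order (ARS-UCD2.0) was used for 6 of the 7 symbols that matched. Reads and isoforms were not analysed here.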

Additional observations from a re-analysis of the deposited data

How the results depend on the processing

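Of 141 alternative values, nearly all of them counts, 113 stayed within 1.5 times of the reported value and 28 moved further. Directions turned under rescaling: the median log2 difference of all models between Cholistani and Holstein went from 0.15 to -0.43, that of the galectins from 0.43 to -0.25 and that of the genes of epithelial-mesenchymal transition from 0.49 to -0.18, and the share of higher among differing models went from 58.9% to 29.7%. The log2 differences of SNAI1 and CRYGS against Jersey stayed above 2 under the alternatives run. Rescaling FPKM to the mean sum of the 3 libraries lowered the models at least 2-fold higher in Cholistani from 3006 to 1773 against Holstein and from 2625 to 1588 against Jersey. Those at least 2-fold lower became 4199 and 4004, from 2099 and 2177, and 1264 and 1328 with a pseudocount of 10 FPKM. The share of higher among differing models against Jersey went from 54.7% to 28.4%. Dividing by the median ratio to Holstein gave shares of 49.8% against Holstein and 45.6% against Jersey. With rescaled sums 4 of the 7 genes met both limits (CABP2, CRYGS and LGALS13 fell to 58.0, 68.5 and 55.2 FPKM), an alternative added after seeing the data, as were the median ratio and exact zeros, with 5 each. The 88 models with the pattern in Cholistani became 62 after rescaling, 78 with exact zeros and 12 with a gene name. The 74 in Jersey and 33 in Holstein became 81 and 40 after rescaling, so Jersey then had more than Cholistani. The FPKM sums before rescaling were 5949765 for Holstein, 6288105 for Jersey and 9518432 for Cholistani. A pseudocount of 10 FPKM gave log2 differences of 2.74 for SNAI1 and 2.31 for CRYGS. Related genes at least 2-fold lower went from 15 to 6 with that pseudocount, to 28 after rescaling and to 9 against Jersey. No paired analysis was possible because each breed is 1 library. The 3 libraries give no spread between samples, and the depth behind a gene is unknown.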

Other observations

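Among named genes above 70 FPKM in Cholistani, those whose higher taurine value lay just past 11 FPKM were PTX3, a secreted pattern recognition protein of the innate immune system (12.02, 0 and 71.8 FPKM in the order Holstein, Jersey, Cholistani), MRPL57 of the mitochondrial ribosome (2.25, 13.2 and 304 FPKM), GPR84, a fatty acid receptor of myeloid cells (9.04, 13.3 and 78.9 FPKM), the GTPase gene RHOD (13.6, 11.4 and 123 FPKM), and PRSSL1, described above in the span of THEG. They were chosen after their values were seen.

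Most models above 70 FPKM in 1 library and at most 11 FPKM in both others had no gene name. Such models made up 65 of the 88 in Cholistani, 45 of 74 in Jersey and 32 of 33 in Holstein, and 45, 35 and 25 of them spanned under 300 bases. Small RNA loci accounted for 29 of the 74 in Jersey, for 2 in Cholistani and for 1 in Holstein. None of the 12 named models with the pattern in Cholistani spanned under 300 bases, and their median span was 9342 bases.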
